A study of Mus musculus with 8 samples.

Results

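Transcription factors of the paraxial and head mesoderm were followed in the left and right heart field of single mouse embryos. The 10 genes were chosen by name: *Tbx6* and *Mesp1*, factors of the mesoderm that leaves the primitive streak, *Tcf15*, *Meox1*, *Meox2* and *Uncx*, factors of the somites, *Pax3* and *Myf5*, factors of muscle progenitors, and *Tcf21* and *Msc*, factors of head muscle progenitors. All 10 were rows of the count table, out of 48526 genes, and 3 of them (*Meox1*, *Tcf15* and *Pax3*) reached the level required for testing. The study asked which genes differ between the left and right heart field. The tissue was dissected from 4 wild-type C57bl6/J male embryos at stage E8.5f, named L29-3, L43-5, L46-8 and L49-3, without treatment and without pooling. The dissected piece lay between the headfolds and the second pair of somites and was taken without the heart tube and the back. Its parts left and right of the midline gave 1 library of polyadenylated RNA each. The group on each side is thus 4 samples, and every comparison of the sides is made within embryos.

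Paraxial mesoderm lies on either side of the neural tube. Its caudal, presomitic part depends on *Tbx6*, and it is cut into somites, which become epithelial and are then divided into sclerotome, the source of vertebrae, and dermomyotome, the source of trunk muscle and dermis. In front of the somites the cranial paraxial and pharyngeal mesoderm stays unsegmented, is contiguous with the second heart field, and forms head muscle under factors such as *Tcf21* and *Msc* instead of *Pax3*. The heart field itself is a lateral plate tissue, marked by genes such as *Isl1*, *Nkx2-5* and *Gata4*.

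The total count per library was between 1147446 and 3520753, with a median of 1916167, after the authors had removed duplicate reads. A gene with no read could have up to 3 counts, which is 0.852 CPM (counts scaled to the library total) in the deepest library and 2.62 CPM in the shallowest. These limits cover counting error only. The labelled tissue was checked with marker lists. Heart field markers were tested in full, 10 of 10, and their summed normalized count (counts divided by the DESeq2 size factor of the library) was between 1008 and 1727 in the libraries of L29-3, L43-5 and L46-8. In L49-3 the left library had 599 and the right library 839. L49-3 also had the highest sums of neural tube markers, 612 on the left and 818 on the right, against 147 to 461 in the other 6 libraries, and its left library had the lowest sum of cardiomyocyte markers, 838 against 2325 to 6710 in the other embryos. The sums were between 1036 and 1642 for surface ectoderm markers, between 530 and 843 for foregut endoderm, between 538 and 1004 for endothelium and between 0 and 31.7 for primitive blood. L49-3 therefore stood apart in tissue markers on both sides, and values without it are given where they change a result.

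The 10 factors spanned a wide range of levels. As CPM per kilobase of exon, the only scale on which levels are compared between genes here, *Meox1* was highest, at 57.0 ± 7.14 (SD over 4 embryos, each the mean of both sides). *Tcf15* followed at 21.5 ± 6.55, *Tcf21* at 3.81 ± 0.594 and *Pax3* at 2.95 ± 1.22. Among all tested genes, 9.19% had a higher level per kilobase than *Meox1*, 28.1% a higher level than *Tcf15* and 90.4% a higher level than *Pax3*, so that the somite homeobox gene belonged to the well expressed genes of this tissue and *Pax3* to the low ones. The remaining 6 factors lay under 1 CPM per kilobase, in the order *Meox2* (0.909 ± 0.265), *Myf5* (0.737 ± 0.513), *Uncx* (0.580 ± 0.141), *Tbx6* (0.353 ± 0.313), *Mesp1* (0.0282 ± 0.0565) and *Msc* (0.0215 ± 0.0431). The ranges over embryos did not overlap between *Meox1* and *Tcf15*, between *Tcf15* and *Tcf21*, or between *Pax3* and *Meox2*. All other neighbours in this order overlapped, so their order was not resolved. Measured per kilobase of the longest transcript, *Meox1* was still first, with 5.01 for *Tcf21* and 4.73 for *Pax3*. The study used 2 background levels for normalized counts, 5.6 from known markers included in or excluded from the tissue and 20 for its tests. It gave the level of 20 for DESeq2-normalized counts and did not name the scale of 5.6. Both are applied here to DESeq2-normalized counts. The mean was above 5.6 for 4 of the 10 factors, as for 25.7% of all genes in the table, and above 20 for 3, since *Tcf21* had a mean of 16.6. The filter for testing required 20 normalized counts or more in 4 or more of the libraries and was passed by 3 of the 10 and by 20.1% of all genes.

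**Figure D1:**
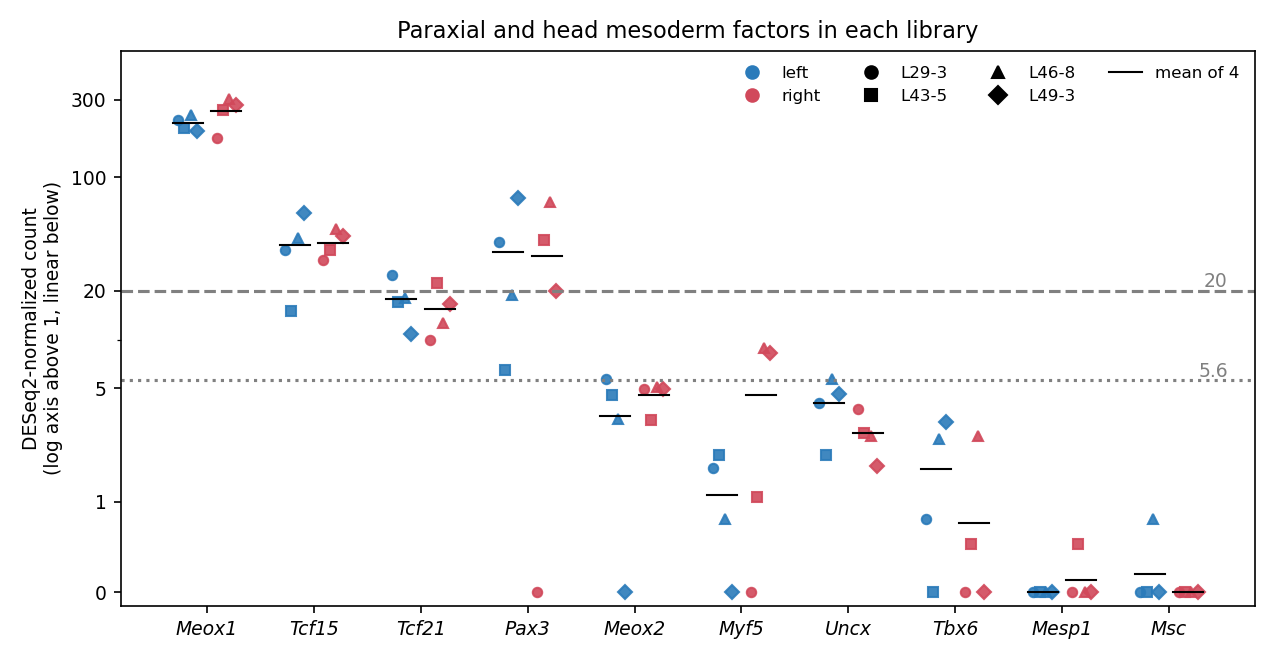
DESeq2-normalized count of each of the 10 factors in the 8 libraries (log axis above 1, linear below), ordered by level per kilobase, with blue for left, red for right, a marker shape for each embryo and a bar for the mean of the 4 libraries of a side. The dotted line at 5.6 and the dashed line at 20 are the study's background levels, both placed here on the DESeq2 scale, the second of them used for testing. *Meox1* lies between 175 and 305 and *Tcf15* between 15.0 and 60.4, *Pax3* spreads from 0 to 74.3, and *Tbx6*, *Mesp1* and *Msc* stay under 5.6 in every library.

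Between the sides, none of the 3 tested factors passed any threshold, and they differed in how their values spread. *Meox1* was slightly lower on the left in 3 of 4 embryos, *Tcf15* varied around equal levels, and *Pax3* was several times higher on 1 side of each embryo, but not on the same side in all of them. The sides were compared with edgeR, a count model, with the embryo as a block and p-values adjusted over the 9744 genes tested. It called 0 of the 3 at an adjusted p under 0.05, where it called 0.0103% of all tested genes. The study's own threshold, a fold of at least 1.2 in either direction with an unadjusted p of at most 0.05, called 0 of 3 against 3.05% of tested genes (1.63% higher and 1.42% lower on the left), and an unadjusted p under 0.05 alone called 0 of 3 against 4.36%. DESeq2 and limma-voom likewise called 0 of 3 by each of these rules, as did edgeR without L49-3. No tested factor had a ratio of the same sign in every embryo, as 12.4% of tested genes did. With 3 genes, these shares do not set the factors apart from other genes. Of the 7 factors below the filter, 4 (*Tcf21*, *Uncx*, *Tbx6* and *Msc*) had the higher mean normalized count on the left, and the other 3 did not. Some of these directions rest on very few reads, 1 in all for *Msc*, 1 for *Mesp1* and 9 for *Tbx6*. No share over all genes is set beside this count.

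The first 2 factors of the sequence from streak to somite were nearly without reads. *Tbx6* (ENSMUSG00000030699, GRCm38 chromosome 7 from 126781483 to 126785560), the T-box factor that specifies presomitic mesoderm, had 9 reads in all. From left to right, the pairs of libraries held 1 and 0 (L29-3), 0 and 1 (L43-5), 3 and 2 (L46-8) and 2 and 0 (L49-3). *Mesp1* (ENSMUSG00000030544, chromosome 7 from 79792241 to 79793788), a basic helix-loop-helix (bHLH) factor of the earliest cardiac and cranial mesoderm, had a single read, in the right library of L43-5. Both were at or under 3 counts in every library, so no fold is given, and a difference between the sides was not detectable at this depth. The exact sign-flip test gave a two-sided p of 0.5 for *Tbx6*, but its ratios rest on 3 counts or fewer per library, so this p decides nothing.

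Other genes of the presomitic mesoderm were largely low as well. Of 14 listed, 4 passed the filter, *Msgn1* and *Mesp2*, which act beside *Tbx6* in the presomitic mesoderm, had 0 reads in all 8 libraries, and 4 of the 14 did not exceed 3 counts in any library. *T*, the Brachyury factor of the primitive streak and notochord, was among the 4 that were tested. Left against right, it had 34.9 against 35.9 normalized counts in L29-3, 53.5 against 13.3 in L43-5, 4.07 against 8.88 in L46-8 and 31.0 against 51.5 in L49-3. Tested genes of this list had a median log2 fold change (left over right) of 0.15, against -0.0042 over all tested genes, and 0 of 4 passed the study's threshold in edgeR.

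*Meox1* (ENSMUSG00000001493, chromosome 11 from 101877510 to 101894374), a homeobox factor of the somites that is needed for the sclerotome and the vertebrae, had the highest level of the 10 and 2043 reads in all. Its normalized count, left against right, was 226 against 175 in L29-3, 201 against 260 in L43-5, 240 against 305 in L46-8 and 192 against 278 in L49-3. It was thus lower on the left in 3 of 4 embryos and higher on the left in L29-3, and the ranges of the sides overlapped, from 192 to 240 on the left and from 175 to 305 on the right. The mean of the left libraries was 215 ± 22.1 and that of the right libraries 254 ± 56.2 (SD, n = 4). The log2 fold change was -0.22 (standard error 0.126, 95% confidence interval -0.50 to 0.05), and the adjusted p was 0.987 (edgeR, quasi-likelihood test, Benjamini-Hochberg adjustment over all tested genes). An exact sign-flip test over the 4 embryos gave a two-sided p of 0.5, where 0.125 is the smallest it can give.

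The direction of *Meox1* in L29-3 weighed on this estimate. Its log2 ratio of left to right was 0.38 in this embryo, whereas the other embryos lay close together, with -0.37 (L43-5), -0.35 (L46-8) and -0.54 (L49-3). The SD of the 4 ratios was 0.408, compared with 0.140 from read counting alone, and among 1682 other tested genes of similar level (mean normalized count within 0.5 on the log2 scale) the median SD was 0.169 and 80 genes had a larger one. Without L29-3 the SD was 0.104 and the log2 fold change -0.41, with an unadjusted p of 0.00158 but an adjusted p of 0.702 in edgeR over all tested genes. *Meox1* was then past the study's threshold, which it did not reach with all 4 embryos. The heart field sums of L29-3, 1240 and 1580, lay inside the range of L43-5 and L46-8, while its cardiomyocyte sums, 6710 and 6293, were the highest of the 8 libraries, and their part in the *Meox1* ratio was not tested.

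*Meox2* (ENSMUSG00000036144, chromosome 12 from 37108540 to 37179534), the paralogue of *Meox1* with roles in the somites and limb muscle, had 35 reads and a level of 0.909 CPM per kilobase, against 57.0 for *Meox1*. Left against right there were 7 against 4 in L29-3, 7 against 6 in L43-5, 4 against 4 in L46-8 and 0 against 3 in L49-3. The sides held 18 and 17 reads in all and overlapped, and the exact sign-flip test gave a two-sided p of 0.625.

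*Uncx* (ENSMUSG00000029546, chromosome 5 from 139543494 to 139548179), a homeobox factor of the caudal compartment of each somite, had 29 reads. The left and right libraries held 5 and 3 (L29-3), 3 and 5 (L43-5), 7 and 2 (L46-8), and 3 and 1 (L49-3). The log2 ratio favoured the left in 3 of 4 embryos, with an exact sign-flip p of 0.375 (two-sided), and every library held between 1 and 7 reads.

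*Tcf15* (ENSMUSG00000068079, chromosome 2 from 152143561 to 152149097), also called Paraxis, is the bHLH factor through which somites become epithelial. Left against right, L29-3 had 35.7 against 30.9 normalized counts, L43-5 15.0 against 35.8, L46-8 42.3 against 48.2 and L49-3 60.4 against 43.2. The left libraries held both the lowest and the highest value, and the right libraries lay between them. Raw counts were between 23 and 67 per library. The mean was 38.3 ± 18.7 for left and 39.5 ± 7.68 for right libraries (SD, n = 4), and the log2 fold change of -0.21 (standard error 0.264, 95% confidence interval -0.79 to 0.37) had an adjusted p of 0.987 in edgeR. Left was higher in 2 of 4 embryos, and without L43-5, where the log2 ratio was -1.20, the log2 fold change turned to 0.14. The SD of the ratio was 0.733, with 0.347 expected from counting and a median of 0.381 among 2157 tested genes of similar level. It fell to 0.332 without L43-5, and its rank among the 9744 tested genes went from 467 to 3429.

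The left library of L43-5 was also the low one for the genes whose profile over the 8 libraries was nearest to *Tcf15*. Nearness was measured as the root mean square difference of centred log2 CPM, and the 8 libraries come from only 4 embryos and share their depth, so this is a description. The nearest of 9743 genes were *Fgf8*, a secreted growth factor of the second heart field and pharyngeal region, at 0.167, *Zfp428* at 0.175 and *Tbx1*, a T-box factor of the pharyngeal mesoderm and second heart field, at 0.180. For comparison, the root mean square of the *Tcf15* profile itself was 0.525. *Fgf8* had 19.6 normalized counts in the left library of L43-5 and between 48.3 and 71.1 in the other 7. *Tbx1* had 59.3 there and between 133 and 180 elsewhere. *Foxc1*, a forkhead factor needed with *Foxc2* for somite formation, ranked 6 of 9743 at 0.200, with 67.8 normalized counts in that library. *Foxc2* ranked 75, and the other abundant somite factor, *Meox1*, ranked 2146. *Tcf15* and *Meox1* are both somite genes by background knowledge, but their profiles over these libraries were not among the close ones.

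**Figure D2:**
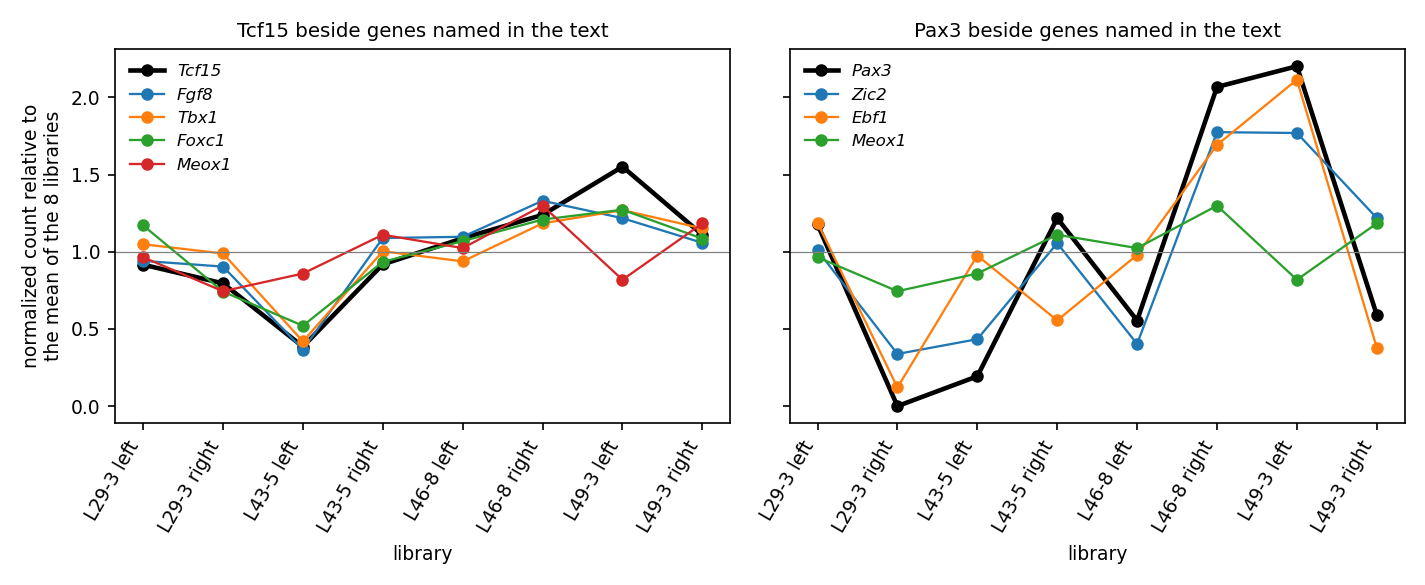
Normalized count of *Tcf15* (left panel) and *Pax3* (right panel) in each library, relative to the gene's mean over the 8 libraries, beside genes named in the text. Lines join the values of 1 gene and carry no order. *Tcf15*, *Fgf8*, *Tbx1* and *Foxc1* all fall lowest in the left library of L43-5, where *Meox1* does not, and *Pax3* runs from 0 in the right library of L29-3 to its highest value in the left library of L49-3.

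The genes nearest to *Meox1* were *Ccdc137* at 0.101, 2310011J03Rik at 0.101 and *Ankmy2* at 0.102, against a root mean square of 0.259 for *Meox1* itself. None of them is on a list of mesoderm genes used here. *Tcf15* ranked 8831 of 9743 by nearness to *Meox1*.

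*Pax3* (ENSMUSG00000004872, chromosome 1 from 78101267 to 78197134) is a paired-box factor of muscle progenitors in the dermomyotome, and also of the dorsal neural tube and neural crest. Left against right, it had 49 against 0 reads in L29-3, 10 against 77 in L43-5, 23 against 55 in L46-8 and 48 against 12 in L49-3. After normalization, in the same order, these were 39.7 against 0, 6.52 against 41.1, 18.7 against 69.8 and 74.3 against 19.9. The gene was high on 1 side of each embryo and low on the other, on the left in L29-3 and L49-3 and on the right in L43-5 and L46-8. The sides alternated, and their means were close, 34.8 ± 29.7 for left and 32.7 ± 29.9 for right (SD, n = 4), and the ranges overlapped nearly in full. The log2 fold change of -0.19 had a standard error of 0.728 and a 95% confidence interval from -1.78 to 1.40, with an adjusted p of 0.996 in edgeR, and an exact sign-flip test gave a two-sided p of 0.875. In bulk tissue, fewer cells of a type and less RNA per cell cannot be told apart.

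Within embryos the difference of *Pax3* was far larger than counting error. In L29-3 the left library was at least 10.7-fold higher, taking 3 counts as the limit for the empty right library and the left count as exact. The log2 ratio was -2.50 in L43-5 (counting standard error 0.485), -1.86 in L46-8 (0.358) and 1.84 in L49-3 (0.466), and with a pseudocount of 0.5 CPM it was 5.46 in L29-3. The SD of these 4 ratios was 3.68, compared with 0.822 from counting and a median of 0.410 among 2092 tested genes of similar level, none of which had a larger one. This was the largest SD of all 9744 tested genes. It ranked 1 also with the ratio of L29-3 set to its bound (SD 2.86), with a pseudocount of 2 CPM (SD 2.74), and without each of L43-5, L46-8 and L49-3. Without L29-3 the SD was 2.34 and the rank was 5. These ranks cover only genes that passed the filter, which *Pax3* met through the higher side of each embryo. *Zic1*, which was below the filter and so not ranked, also had large log2 ratios. They were 4.15 (L29-3), -2.92 (L43-5), -3.33 (L46-8) and 1.45 (L49-3). Up to 121 bases of *Pax3* transcripts match 4 other genes closely, a small part of its 6187 exonic bases.

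**Figure D3:**
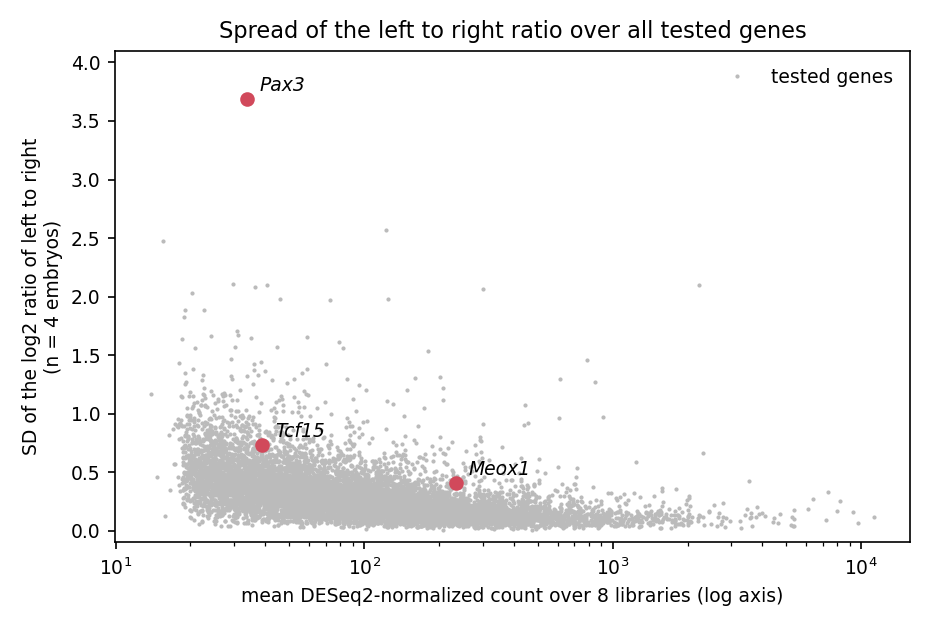
SD over the 4 embryos of the log2 ratio of left to right (TMM-normalized CPM plus 0.5), against the mean normalized count over 8 libraries (log axis), for 9744 tested genes in grey and the 3 tested factors in red. *Pax3*, at 3.68, lies above all other tested genes, *Tcf15*, at 0.733, ranks 467, and *Meox1*, at 0.408, ranks 2297.

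The genes with profiles nearest to *Pax3* were *Ebf1*, a factor of head and pharyngeal mesoderm among other tissues, at 1.03, *Zic2*, a zinc finger factor of the dorsal neural tube and somites, at 1.04, and Gm6395 at 1.12, all far from *Pax3* relative to its own root mean square of 1.68. *Zic2* had 73 counts against 16 (L29-3, left against right), 39 against 116 (L43-5), 29 against 82 (L46-8) and 67 against 43 (L49-3). Its log2 ratios, 1.54, -1.25, -2.11 and 0.52 in that order, had the sign of the *Pax3* ratio in all 4 embryos. *Ebf1* had 45 against 3, 46 against 32, 37 against 41 and 42 against 7 counts, with the sign of *Pax3* in 3 embryos and the opposite sign in L43-5. Both genes were picked for their nearness to *Pax3* over the same libraries, so shared signs are largely given by that choice.

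*Pax3* is active outside the paraxial mesoderm, so genes of its other tissues were read beside it. Of the 11 neural tube markers, 3 had a left to right ratio of the same sign as *Pax3* in all 4 embryos, 5 in 3 embryos and 3 in 2 or fewer. Of the 8 neural crest markers, 2 had it in all 4 embryos, 2 in 3 and 4 in 2 or fewer, and of the 16 other somite genes 1, 8 and 7 did. Of the 12 other head and pharyngeal mesoderm genes, 2 had it in all 4 embryos, 5 in 3 and 5 in 2 or fewer. No share over all tested genes is set beside these counts, so they do not set any list apart. Some of the signs rest on very few reads, as for *Nkx6-2* (23 in all, 1 against 1 in L46-8) and *Dbx1* (9 in all). A pair of libraries without reads counted as not sharing the sign. Markers that shared the sign of *Pax3* in all 4 embryos and markers that did not were thus found within each list.

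The genes described next were picked after their values were seen, to show both kinds. *Zic1*, of the dorsal neural tube, had 19 counts against 0 (L29-3, left against right), 2 against 30 (L43-5), 1 against 13 (L46-8) and 4 against 1 (L49-3), and *Foxd3*, of early neural crest, had 6 against 0, 0 against 3, 0 against 8 and 1 against 0 in that order. Both shared the sign of *Pax3* in every embryo, although the counts in L49-3, and those of *Foxd3* in L43-5, were 4 or fewer. *Pax7*, the paralogue of *Pax3* in dermomyotome and dorsal neural tube, had 8 against 0, 4 against 9, 3 against 10 and 4 against 4.

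Among neural and neural crest genes with more reads, *Sox2*, of the neural plate, also shared the sign of *Pax3* in all 4 embryos, with smaller log2 ratios of 0.30, -0.37, -0.60 and 0.35. So did *Sox9*, of neural crest and sclerotome, with 0.58, -0.22, -0.56 and 0.78. *Sox1* and *Pax6*, neural tube genes that passed the study's threshold as lower on the left (log2 fold change -0.98 and -0.83, unadjusted p 0.0167 and 0.0142, adjusted p 0.987 in edgeR for both), shared it in 3 embryos and not in L49-3. *Nkx6-1*, of the ventral neural tube, shared it in 1 embryo (-0.87, 0.76, -1.42 and -1.09), and *Ets1* of the neural crest list shared it in 2. *Tfap2b* and *Dlx2* of the neural crest list shared it in 1 embryo, but with only 27 and 70 reads in all.

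The whole marker lists moved with *Pax3* in part. The left to right log2 ratio of summed neural tube markers (11 listed, 6 tested) was 0.38, -0.68, -1.51 and -0.42 in the order of the embryos above, and thus shared the sign of *Pax3* in the first 3 embryos and not in L49-3. For the neural crest markers (8 listed, 2 tested) it was 0.17, 0.18, -0.65 and 0.50, with a different sign in L43-5. The neural tube sum itself was between 147 and 612 on the left and between 305 and 818 on the right, and the neural crest sum between 175 and 277 on the left and between 196 and 275 on the right. The part of neural tube, neural crest or dermomyotome in the *Pax3* counts was not tested.

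**Figure D4:**
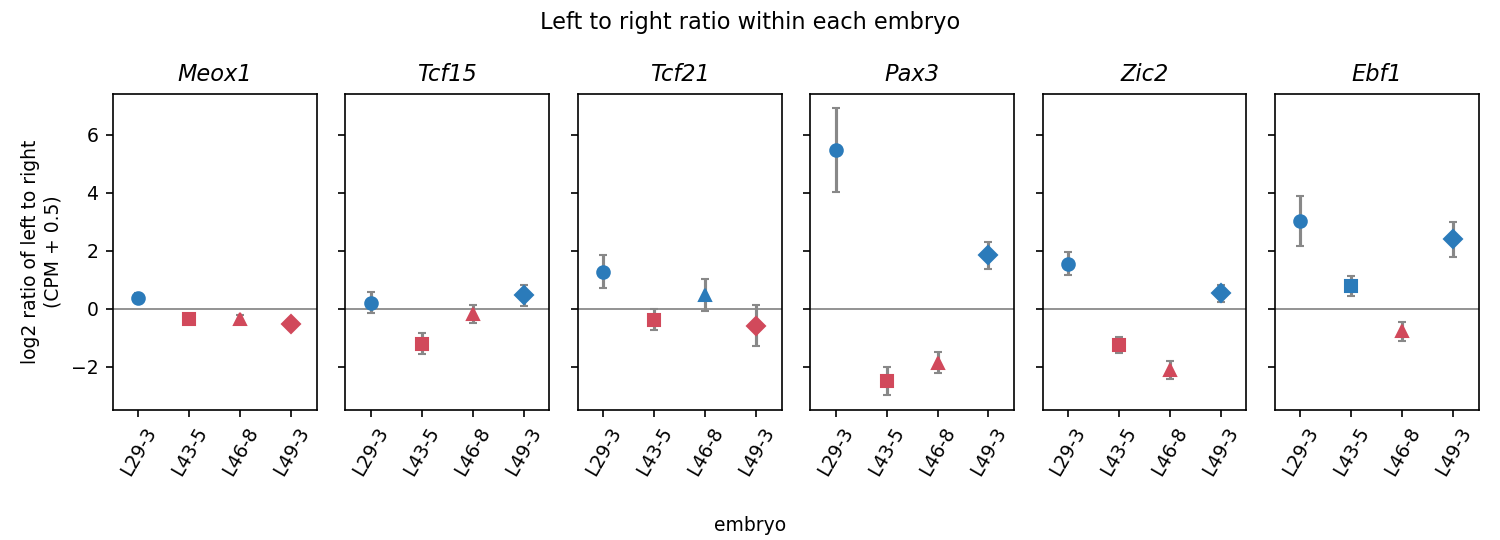
Log2 ratio of left to right (TMM-normalized CPM plus 0.5) in each of the 4 embryos for *Meox1*, *Tcf15*, *Tcf21* and *Pax3*, and for the 2 genes nearest to *Pax3*. Blue points are higher on the left and red points on the right, and bars are plus and minus 1 standard error from counting. The *Meox1* ratios lie between -0.54 and 0.38, whereas those of *Pax3* run from -2.50 to 5.46, the last against a library with no read.

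*Myf5* (ENSMUSG00000000435, chromosome 10 from 107482908 to 107486134), the first of the myogenic regulatory factors to be expressed in the somites, had 20 reads. The left and right libraries held 2 and 0 (L29-3), 3 and 2 (L43-5), 1 and 7 (L46-8), and 0 and 5 (L49-3). The right side held 14 of the 20, all but 2 of them in L46-8 and L49-3. In L49-3 the normalized right count was 1.79-fold the limit of 3 counts for the empty left library. The counting standard error of this log2 ratio was 1.58, so this is not a firm lower limit. Left was higher in L29-3 and L43-5, and the exact sign-flip test gave a two-sided p of 0.5. The later muscle factors had few reads: *Myod1* had 3 reads, *Lbx1* 2, *Myog* 1 and *Myf6* 1 over all libraries.

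Of the 10 other genes of the skeletal muscle programme, 6 were tested, 4 with a positive and 2 with a negative log2 fold change. Only *Des*, an intermediate filament gene of skeletal and also of cardiac muscle, passed the study's threshold, with a log2 fold change of -0.54 and an unadjusted p of 0.0247, but an adjusted p of 0.987 in edgeR. Over all tested genes, 3.05% passed this threshold. *Des* had its lower value on the left in 3 of 4 embryos, and the cardiomyocyte sum was lower on the left in L43-5 and L49-3, the 2 embryos with the lowest *Des* ratios, whereas in L46-8 *Des* was lower (log2 ratio -0.29) and the cardiomyocyte sum higher on the left (0.91). The part of cardiomyocytes in this difference was not tested.

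The head muscle factors were unequal. *Tcf21* (ENSMUSG00000045680, chromosome 10 from 22817281 to 22820174), a bHLH factor of pharyngeal muscle progenitors and of the proepicardium, had 31 counts against 8 in L29-3 (left against right), 26 against 42 in L43-5, 22 against 10 in L46-8 and 7 against 10 in L49-3. Left was higher in L29-3 and L46-8 and right in the other embryos, and the sides overlapped. It had 17.7 ± 5.86 normalized counts in left and 15.4 ± 5.42 in right libraries (SD, n = 4), above 5.6 in all 8 libraries but at 20 or more in only 2, so it was not tested with the other genes. The exact sign-flip test gave a two-sided p of 0.75 for its log2 ratios, whose SD was 0.852, and in a fit of edgeR without a filter the log2 fold change was 0.20 (adjusted p 0.997). *Tcf21* was just short of the filter, where *Pax3* just passed it, with 4 of 8 libraries at 20 or more.

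*Msc* (ENSMUSG00000025930, chromosome 1 from 14753346 to 14755992), the bHLH factor that acts together with *Tcf21* in head muscle progenitors, had a single read, in the left library of L46-8. It shares 539 exonic bases with Gm9947 on the opposite strand, and the use of strand in counting is not given in the sources used here. At 0 in 7 of 8 libraries, *Msc* could have had up to 3 counts in each of them, and no fold is given. *Tcf21* was therefore measured in every library where its partner was at or near 0.

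Other genes of the head and pharyngeal mesoderm were tested in larger number, 9 of 12. Of these, 2 passed the study's threshold, both higher on the left, as 1.63% of all tested genes did. The list was chosen with earlier results of these data known, so this count does not set it apart. *Cyp26c1*, an enzyme that degrades retinoic acid, had 112 normalized counts against 35.9 in L29-3 (left against right), 91.9 against 34.7 in L43-5, 73.2 against 87.6 in L46-8 and 206 against 16.6 in L49-3. The left exceeded the right in 3 of 4 embryos, with a log2 fold change of 1.35 (unadjusted p 0.00354, adjusted p 0.987 in edgeR), and the SD of its ratio, 1.56, ranked 25 of 9744. *Ebf2*, of the same family as *Ebf1*, had its higher value on the left in 4 of 4 embryos, with a log2 fold change of 0.51 (unadjusted p 0.0290, adjusted p 0.987). The median log2 fold change of the list was 0.19, and 0 of 9 had an adjusted p under 0.05.

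Levels of the other somite genes were spread from above *Meox1* to far below *Tcf15*. Among the low ones were *Pax1* at 2.60 CPM per kilobase, *Dmrt2* at 1.89, *Tbx18* at 1.42 and *Nkx3-2* at 0.164. *Twist1*, a bHLH factor of sclerotome and head mesenchyme, was at 70.8 CPM per kilobase, *Aldh1a2*, which makes retinoic acid in somites and lateral plate, at 52.1, *Foxc2* at 34.0 and *Foxc1* at 12.1, whereas *Pax7* was at 0.484. Of 16 genes listed, 9 were tested, with 4 positive and 5 negative log2 fold changes and a median of -0.05. *Fst*, the activin antagonist follistatin, was the single gene past the study's threshold, with a log2 fold change of 0.34 (unadjusted p 0.0157, adjusted p 0.987 in edgeR), higher on the left in 3 of 4 embryos. The threshold was passed by 3.05% of all tested genes. *Aldh1a2* and *Twist1* are also made outside the somites, so the list does not measure somite tissue alone.

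*Tcf15*, *Tcf21* and *Msc* bind DNA as dimers with E proteins, and Id proteins hold E proteins back. The E protein gene *Tcf3* was at 97.2 CPM per kilobase, *Tcf12* at 15.7 and *Tcf4* at 6.58, and the inhibitors *Id2* at 91.7, *Id1* at 77.4, *Id3* at 70.0 and *Id4* at 1.97. *Tcf3*, *Id1*, *Id2* and *Id3* were thus above *Tcf15* (21.5) and *Tcf21* (3.81), and *Id4* was below both. *Tcf12* and *Tcf4* lay between *Tcf21* and *Tcf15*, but this depended on the length used. Per kilobase of the longest transcript, *Tcf12* was at 38.6, above *Tcf15* (21.5), and *Tcf4* was only slightly below *Tcf15*. The order of these 3 genes was therefore not resolved. Of 7 partner genes, 6 were tested, with 3 positive and 3 negative log2 fold changes between -0.10 and 0.21. None passed the study's threshold in edgeR. *Tcf4* had an unadjusted p of 0.0420 (adjusted p 0.987) at a fold under 1.2.

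Whether the 4 embryos differed from each other, over both sides, was tested with the embryo term of the same fit. Both libraries of an embryo come from the same animal, so a call concerns these 4 embryos only. Differences are measured against the spread left between the sides of an embryo. edgeR called 0 of the 3 factors at an adjusted p under 0.05, where it called 0.174% of tested genes, and 0 of 3 at an unadjusted p under 0.05, where it called 9.99%. DESeq2 and limma-voom gave 0 of 3 as well. *Tcf15* came nearest, with an adjusted p of 0.538 (unadjusted 0.0691): its mean normalized count per embryo was 33.3 (L29-3), 25.4 (L43-5), 45.3 (L46-8) and 51.8 (L49-3). *Meox1* had 200.4, 231, 272 and 235 in the same order, with an adjusted p of 0.722. *Pax3* had 19.9, 23.8, 44.3 and 47.1, with an adjusted p of 0.899, and differed more between the sides of every embryo than these means did from each other. *Tcf15* was highest in L49-3, the embryo with the lowest heart field and the highest neural tube sums, and *Meox1* was not. The part of tissue composition in these levels was not tested.

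**Figure D5:**
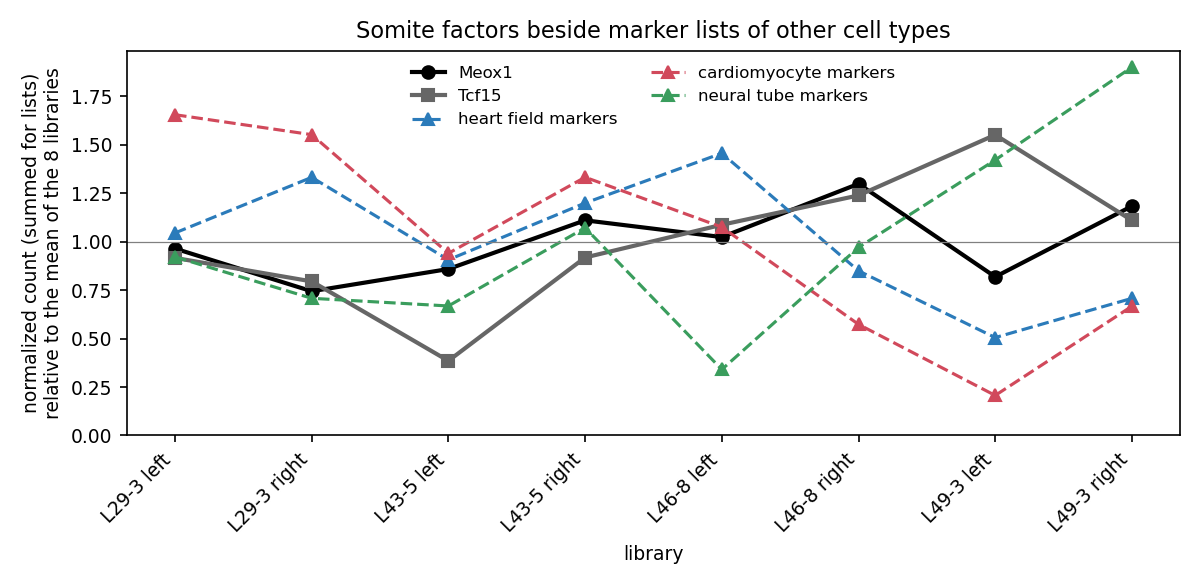
Normalized count of *Meox1* and *Tcf15* (solid lines) and summed normalized count of heart field, cardiomyocyte and neural tube marker lists (dashed lines) in each library, relative to the mean of the 8 libraries. Lines join values of 1 gene or list and carry no order. The lists move by more than *Meox1*, the neural tube sum is highest in both libraries of L49-3, and *Tcf15* is lowest in the left library of L43-5, where none of these 3 lists is lowest.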

How the data were processed

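RNA of paired left and right heart fields of 4 embryos was measured in 8 libraries. The authors mapped the reads with Hisat2 (GRCm38), dropped duplicates and deposited raw counts per gene from featureCounts. Versions and the use of strand are not given in the sources used here. Duplicate removal and poly-A selection are thus part of the counts. GENCODE vM21 gave a symbol to 48058 identifiers and none to 468.

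The 9744 genes that reached 20 DESeq2-normalized counts in 4 or more libraries were tested with edgeR 4.0.16 (R 4.3.3): TMM, quasi-likelihood test, embryo as block, Benjamini-Hochberg adjustment. A second test was made of the embryo term. Normalized counts are those of DESeq2 1.42.0. Ratios use TMM-normalized CPM plus 0.5, and genes of similar level have a mean within 0.5 on the log2 scale. Levels per kilobase use merged exons.

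Both sides come from the same animal, which pairs them. The correlation of their deviations was 0.167, 0.187, -0.0221 and 0.431, against -0.388 to 0.253 between embryos. Every pair of libraries differed beyond sampling noise (chi-square per degree of freedom from 1.93).

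All 10 factors are named. The 3 nearest genes of each tested factor are named, and up to 4 genes of each other list, taking those past the study's threshold first; genes of these lists named beyond this rule, for a low level or beside *Pax3*, *Tcf15* or the partners of bHLH factors, were chosen after their values were seen. The factors and lists were chosen with earlier results of these data known. Marker lists covered the heart field, cardiomyocytes, neural tube, neural crest, surface ectoderm, foregut endoderm, endothelium and primitive blood. Alternatives were DESeq2 size factors, limma-voom (limma 3.58.1), DESeq2, no filter, a filter of 10 counts or more throughout, no block, and each embryo left out. The pseudocount of 2 CPM, the bound and the embryos left out of the ratio spread were added after seeing the data. The fits were tested on simulated data. Promoter and protein sequences were not used here.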

Additional observations from a re-analysis of the deposited data

Results flagged for a closer look

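*Meox2* had 3.20 normalized counts in the right library of L43-5, from 6 reads, while the other 3 right libraries lay between 4.95 and 5.08, so this library stood apart from a group that was otherwise very tight. The flag rests on 3 to 6 reads per library. Of 21 groups of 4 values examined for 7 factors (not *Tbx6*, *Mesp1* and *Msc*), 1 was flagged, and chance flags about 1 in 20.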

How the results depend on the processing

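With all alternatives, 0 of the tested factors had an adjusted p under 0.05 for the side or for the embryo. By the study's threshold, between 0 and 1 factor passed when each embryo was left out (1, *Meox1*, without L29-3). At an unadjusted p under 0.05 for the side, 1 passed with no filter (*Meox1*, p 0.0386) and 0 to 1 with each embryo left out. For the embryo term, 3 passed an unadjusted p under 0.05 with no filter and 0 to 1 with each embryo left out (*Tcf15* without L29-3, p 0.0351), and their lowest adjusted p was 0.0616 (*Pax3*, no filter). The edgeR fit with no filter tested all 10 factors and 23873 genes. At an adjusted p under 0.05 it called 641 genes for the embryo and 34 for the side, against 17 and 1 of 9744 in the main fit. No share over all genes at an unadjusted p is set beside these counts of factors. The cause of these changes was not tested.

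The log2 fold change of *Meox1* was negative throughout, from -0.41 to -0.14, with adjusted p of 0.702 or more. That of *Tcf15* ran from -0.42 to 0.14 with each embryo left out, positive without L43-5. That of *Pax3* was 0.40 with DESeq2 and ran from -0.94 to 0.63 with each embryo left out, positive without L43-5 (0.63) and without L46-8 (0.51); *Pax3* was not tested at 10 counts in every library. With no replicate block, the log2 fold changes were -0.24 for *Meox1*, -0.11 for *Tcf15* and -0.12 for *Pax3*, and no call changed.

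Over all tested genes, 297 passed the study's threshold, 56 with DESeq2 and 687 of 23873 with no filter. Depth limits the 6 factors with 35 reads or fewer.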
